A study of Mus musculus with 11 samples.

Results

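Expression of 10 genes of fat cells was followed in mesenchymal stromal cells isolated from mouse bone marrow, which can become bone, cartilage or fat cells. They are Pparg, Cebpa, Adipoq, Cfd, Lpl, Angptl4, Cd36, Fabp4, Plin4 and Thrsp, and they were read by gene name from both deposited tables, which held 19259 and 19801 genes and shared 18712. All 10 were present in both tables and all 10 passed the filter on low values in each comparison. RNA was sequenced from 3 libraries with a knockout of ANXA2, 4 with a knockout of ANXA5 and 4 of wild type. All came from untreated primary cells of C57/BL6 mice. How either knockout was made, the age of the mice and whether animals were pooled are not stated by the labels. Nothing states that libraries of a group came from separate animals or cultures, so p-values measure only how these samples vary, which can be technical.

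The 10 genes were chosen by gene name with the fold changes and p-values of both knockouts against the wild type in these same libraries known, so the differences between genotypes are given as descriptions, without a p-value for any member. Counts of members past a threshold stand beside the share of all genes past it, and nothing is read from them. Angptl4 and Thrsp had ranks 15 and 16 by p-value in the authors' deposited table of the ANXA5 knockout. The other 8 are textbook adipocyte genes. They mark adipocytes by name, but 5 of the 10 further adipocyte markers looked for, Plin1, Cidec, Lep, Retn and Adrb3, are not in both tables and were not analysed here. The remaining 5, Pck1, Slc2a4, Lipe, Car3 and Tusc5, were read in all 11 libraries. Their summed level was 656 to 773 normalised reads in ANXA2 knockout, 612 to 868 in ANXA5 knockout and 463 to 822 in wild type libraries, so the groups overlapped. Taken singly, 3 of these 5 had a log2 difference from the wild type above 0 in the ANXA5 knockout (median 0.17). In the ANXA2 knockout 3 of 5 did (median 0.32), and the groups of each overlapped in both. Summed stromal markers such as Pdgfra, Gas6 and Cxcl12 stood far above the adipocyte sum, at 74286 to 96387 in ANXA2 knockout, 75943 to 86561 in ANXA5 knockout and 79102 to 90141 in wild type libraries. Of the stromal markers, 4 of 10 were above 0 in the ANXA5 knockout (median -0.06) and 7 of 10 in the ANXA2 knockout (median 0.14). The 10 genes are called adipocyte genes here by their known use, and the name says nothing of whether adipocytes were present.

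In fat cells the nuclear receptor encoded by Pparg and the C/EBP factor encoded by Cebpa maintain each other and turn on genes for fatty acid uptake, storage and secreted hormones. Lipoprotein lipase, the product of Lpl, frees fatty acids from circulating lipoproteins, and ANGPTL4 inhibits it. The scavenger receptor CD36 takes the fatty acids up, FABP4 carries them in the cytosol and perilipin 4 coats lipid droplets. Several of these genes are not private to adipocytes: Cd36 and Fabp4 are also used by capillary endothelium and macrophages, and Lpl by macrophages. Marrow stromal cells that express the leptin receptor are known to express adipogenic genes without storing fat.

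A normalised read is a read count divided by the library's size factor, and each knockout table has its own scale for the wild type, so wild type values of a gene differ a little between the comparisons. The direct comparison of both knockouts used all 11 libraries on 1 joint scale. ANXA2 knockout libraries carry the numbers of their table columns, 1, 3 and 4. The libraries held 23.3 to 35.7 M reads over the genes of the tables. Anxa2 stood at 28.6% of wild type in the ANXA2 knockout and Anxa5 at 9.24% of wild type in the ANXA5 knockout, with no overlap of groups (exact permutation p = 0.0286 each, two-sided, the smallest these groups allow). Xist, the RNA of the silenced X chromosome in female cells, ran from 218 to 699 normalised reads in ANXA2 knockout libraries (joint scale). It ran from 2.03 to 1636 in ANXA5 knockout and from 1.03 to 2139 in wild type libraries. Wild type libraries 1 to 4 had 1957, 2139, 1.25 and 1.03, and no ANXA2 knockout library was near either end. By Xist, libraries within the wild type and within the ANXA5 knockout thus did not all have the same make-up of cells. How many animals they came from is not stated. The ANXA2 knockout also differed from the wild type in its make-up by Xist.

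The stretches before the start of transcription are shown for Thrsp, Adipoq, Cd36 and Plin4, because these genes stood on average over 2-fold higher in the ANXA5 knockout and have an entry in the RefSeq table (GRCm38.p6). Of the 10 genes, 7 matched that table, and Fabp4, Lpl and Angptl4 did not. Each run is the 250 bases upstream of the annotated start, read 5′ to 3′ on the strand of the gene. Capitals mark CCAAT, the letters of the CCAAT box, and AGGTCA, a half-site letter string of nuclear receptors, on either strand (ATTGG and TGACCT are the reverse strand forms). TATAAA was searched too.
Thrsp, chr7:97417551-97417800, minus strand: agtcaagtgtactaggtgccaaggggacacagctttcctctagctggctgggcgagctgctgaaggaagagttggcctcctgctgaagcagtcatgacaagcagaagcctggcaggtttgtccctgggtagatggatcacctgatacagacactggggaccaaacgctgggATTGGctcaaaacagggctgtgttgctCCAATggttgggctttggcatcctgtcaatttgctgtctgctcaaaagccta
Adipoq, chr16:23146286-23146535, plus strand: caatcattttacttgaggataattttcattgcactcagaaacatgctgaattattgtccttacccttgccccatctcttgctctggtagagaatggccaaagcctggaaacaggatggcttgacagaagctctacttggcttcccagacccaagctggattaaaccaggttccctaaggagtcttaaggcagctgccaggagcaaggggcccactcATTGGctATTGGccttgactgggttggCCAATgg
Cd36, chr5:17835897-17836146, minus strand: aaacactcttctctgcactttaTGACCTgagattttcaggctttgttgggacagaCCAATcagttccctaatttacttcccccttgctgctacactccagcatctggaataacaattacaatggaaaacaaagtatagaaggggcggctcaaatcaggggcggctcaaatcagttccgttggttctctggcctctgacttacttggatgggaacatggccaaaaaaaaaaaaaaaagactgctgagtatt
Plin4, chr17:56109783-56110032, minus strand: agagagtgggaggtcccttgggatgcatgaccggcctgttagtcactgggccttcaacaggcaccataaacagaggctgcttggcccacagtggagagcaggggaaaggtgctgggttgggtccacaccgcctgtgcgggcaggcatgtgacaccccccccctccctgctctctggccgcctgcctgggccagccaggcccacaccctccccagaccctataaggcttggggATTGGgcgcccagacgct
Thrsp held 2 matches of CCAAT, beginning 79 and 52 bases before the start. Adipoq held 3, at 34, 27 and 7 bases before the start. Cd36 held 1 match of CCAAT at 195 and 1 of AGGTCA at 228 bases, and Plin4 1 match of CCAAT at 18 bases. Neither TATAAA nor a direct repeat of AGGTCA with 1 base between its copies was found in these 4 windows. Over all 32851 windows of this length, 33.8% held CCAAT, 14% AGGTCA, 12.4% TATAAA and 0.0335% the direct repeat, and the motifs do not overlap each other in the runs shown. A match is a description of letters and not a binding site.

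Levels of different genes were compared per kilobase of exon (GENCODE vM21 lengths), in normalised reads per kilobase on the joint scale. The length is the union of the exons of all annotated transcripts, 4489 bases for Fabp4 and 10478 for Lpl. It can exceed the length of the RNA that is expressed, so the order of genes depends on it. Comparisons of a gene between genotypes do not. Angptl4 led in both knockouts, with 895 ± 341 (SD, n = 3) in ANXA2 knockout and 1067 ± 175 (SD, n = 4) in ANXA5 knockout libraries, against 474 ± 125 (SD, n = 4) in the wild type. Lpl came next in the knockouts and first in the wild type, at 421 ± 133 in ANXA2 knockout, 553 ± 160 in ANXA5 knockout and 488 ± 63.5 in wild type libraries. In the wild type, Lpl and Angptl4 did not differ beyond their spread. The middle of the order was held by Cebpa, Adipoq, Cd36, Fabp4 and Pparg. Their means per kilobase ran from 102 for Pparg to 300.4 for Cebpa in ANXA2 knockout, from 107 for Pparg to 393 for Adipoq in ANXA5 knockout and from 79.5 for Pparg to 211 for Cebpa in wild type libraries. Neighbours in that stretch differed by less than the larger of their SDs, except Adipoq above Cd36 in the ANXA2 knockout and Fabp4 above Pparg in the ANXA5 knockout. Cfd, Plin4 and Thrsp were lowest in all 3 genotypes, between 4.68 per kilobase for Thrsp in the wild type and 28.4 for Thrsp in the ANXA5 knockout. Thrsp was last in the ANXA2 knockout and the wild type, and in the ANXA5 knockout it stood beside Cfd, with 28.4 ± 14.9 per kilobase for Thrsp and 27.5 ± 15.3 for Cfd.

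**Figure D1:**
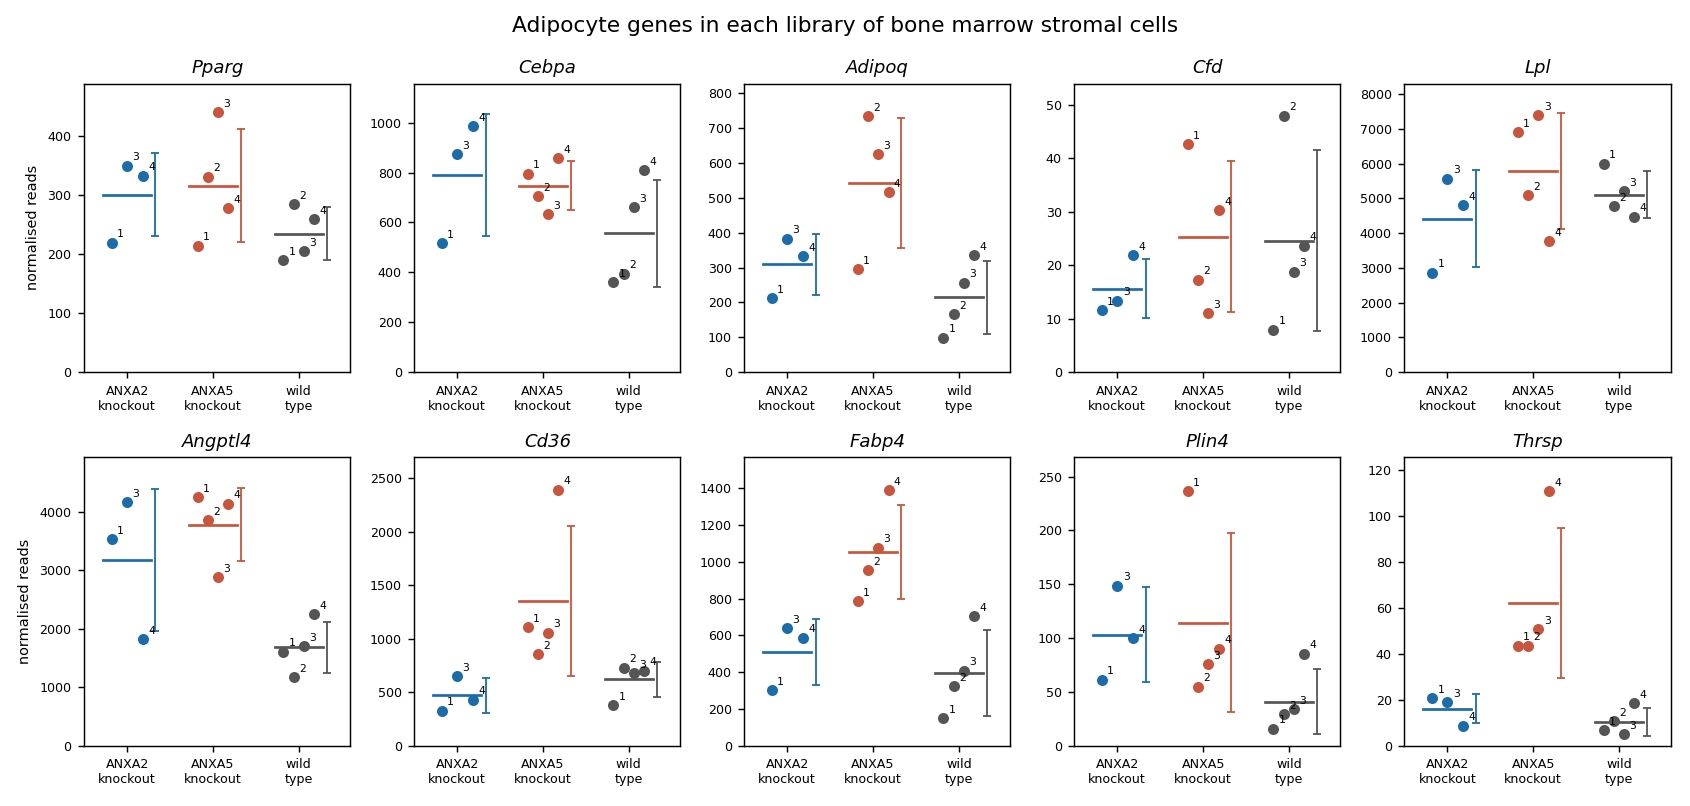
Normalised reads (joint scale, y axis from 0) of the 10 adipocyte genes in each library, numbered as the libraries are, with the group mean as a line and the SD as a bar. Angptl4, Cd36, Fabp4 and Thrsp have all 4 ANXA5 knockout libraries above all 4 wild type libraries, while ANXA2 knockout libraries overlap the wild type in every panel.

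In the ANXA5 knockout, 4 of the 10 adipocyte genes, Angptl4, Cd36, Fabp4 and Thrsp, were higher in all 4 knockout libraries than in all 4 wild type libraries. Groups lay apart in that direction for 3.01% of all tested genes, and nothing is read from the members' count because this contrast helped to choose them. All 10 members had a mean log2 difference above 0, with a median of 1.12, against a median of 0.01 and 52% above 0 over 16224 tested genes. The sizes ran from 0.13 for Cfd to 2.52 for Thrsp. Summed endothelial markers stood at 5185 to 8118 normalised reads in ANXA5 knockout and 4058 to 5214 in wild type libraries on the joint scale, so these groups overlapped slightly. By single marker, 7 of the 10 (Pecam1, Cdh5, Tie1, Emcn, Egfl7, Esam and Gpihbp1) lay above the wild type in all knockout libraries, with log2 differences of 0.90 to 2.29, and Tek, the most abundant of the sum, averaged 1734 normalised reads in ANXA5 knockout and 2481 in wild type libraries. The part of these markers in the members' differences was not tested. In bulk RNA, fewer cells of a type and less RNA per cell cannot be told apart.

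Thrsp encodes the thyroid hormone responsive Spot 14 protein, a nuclear and cytosolic factor of lipogenic tissues. It stood at 44.5, 44.6, 51.9 and 114 normalised reads in ANXA5 knockout libraries 1 to 4, against 6.95, 10.9, 5.14 and 18.9 in wild type libraries 1 to 4. The lowest knockout library was above the highest wild type library, and knockout library 4 stood far above the other 3. The means were 63.7 ± 33.6 in ANXA5 knockout and 10.5 ± 6.13 in wild type libraries (SD, n = 4 each), and the log2 difference was 2.52 (SE 0.42, 95% interval 1.58 to 3.47), a 5.74-fold difference on the log2(value + 1) scale. The counts behind it are small, with 43 to 139 reads in the knockout and 4 to 18 reads in the wild type.

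Angptl4, the secreted inhibitor of lipoprotein lipase and a target of PPAR factors, had 4352, 3937, 2950.2 and 4246 normalised reads in ANXA5 knockout libraries 1 to 4, against 1641, 1193, 1745 and 2296 in the wild type libraries. Every knockout library exceeded every wild type library, and knockout library 3 was the lowest of its group. The means were 3871 ± 639 in ANXA5 knockout and 1719 ± 453 in wild type libraries (SD, n = 4 each), with a log2 difference of 1.19 (SE 0.19, 95% interval 0.77 to 1.62), or 2.29-fold. Its interval was narrower than those of Thrsp, Fabp4, Cd36, Plin4 and Adipoq.

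Lpl, the lipase that ANGPTL4 inhibits, had overlapping groups, with 7078, 5215, 7570.3 and 3869 normalised reads in ANXA5 knockout libraries 1 to 4 and 6134, 4874, 5353 and 4575 in wild type libraries. The knockout libraries spread on both sides of the wild type range, and the log2 difference was 0.14 (SE 0.20, 95% interval -0.30 to 0.58). As reads of Angptl4 per read of Lpl within a library, which needs no scaling between libraries, the ratio was 0.615, 0.755, 0.390 and 1.10 in ANXA5 knockout libraries 1 to 4 and 0.267, 0.245, 0.326 and 0.502 in wild type libraries. Wild type library 4 lay inside the range of the knockout libraries, and the other 3 wild type libraries lay below it. Reads are not corrected for length here, so only the comparison between libraries is meaningful.

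Fabp4, the fatty acid carrier, stood at 805, 975, 1102 and 1426 normalised reads in ANXA5 knockout libraries 1 to 4, against 152, 331, 419 and 722 in the wild type libraries. The groups did not overlap, although wild type library 4 came close to knockout library 1. The log2 difference was 1.58 (SE 0.39, 95% interval 0.71 to 2.46), from means of 1077 ± 263 in ANXA5 knockout and 406 ± 238 in wild type libraries (SD, n = 4 each). Cd36, the fatty acid and lipoprotein receptor, had 1138, 874, 1083 and 2457 in ANXA5 knockout libraries, against 386, 747, 697 and 717 in wild type libraries. Its knockout library 4 was over 2-fold above the other 3, and wild type library 1 was well below the other 3, while the groups stayed apart. The log2 difference of Cd36 was 1.05 (SE 0.32, 95% interval 0.35 to 1.75) with all libraries and 0.73 without knockout library 4.

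Plin4, the droplet coat protein, was spread widely, with 243, 56.0, 77.4 and 92.5 normalised reads in ANXA5 knockout libraries 1 to 4 and 16.2, 29.9, 34.7 and 87.3 in wild type libraries. Knockout library 1 was the high value, and wild type library 4 lay inside the knockout range. The log2 difference was 1.48 (SE 0.53, 95% interval 0.29 to 2.67) and 1.05 without knockout library 1. Adipoq, which encodes the hormone adiponectin, had 302, 752, 639.7 and 531 in ANXA5 knockout libraries, against 101, 169.7, 264 and 344 in wild type libraries. Only knockout library 1 lay inside the wild type range, below wild type library 4. The means of Adipoq were 556 ± 192 in ANXA5 knockout and 219.5 ± 106 in wild type libraries (SD, n = 4 each), with a log2 difference of 1.40 (SE 0.38, 95% interval 0.55 to 2.26).

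The pair of transcription factors differed less from the wild type, on average, than Cd36, Fabp4 and Plin4. Pparg had 219, 339, 451 and 286 normalised reads in ANXA5 knockout libraries 1 to 4 and 194, 291, 211 and 265 in wild type libraries, a log2 difference of 0.40 (SE 0.22, 95% interval -0.09 to 0.89). Cebpa had 816, 721, 649 and 880.3 in ANXA5 knockout and 367, 403, 679 and 829 in wild type libraries, a log2 difference of 0.50 (SE 0.24, 95% interval -0.04 to 1.05). For both, the groups overlapped and the interval included 0. Cfd, the serine protease adipsin of the alternative complement pathway, was read at 43.7, 17.6, 11.3 and 31.1 in ANXA5 knockout and 8.11, 49.0, 19.3 and 24.2 in wild type libraries. These low values spread more within each group than between them, and the log2 difference was 0.13 (SE 0.54, 95% interval -1.08 to 1.34), which became -0.30 without wild type library 1.

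**Figure D2:**
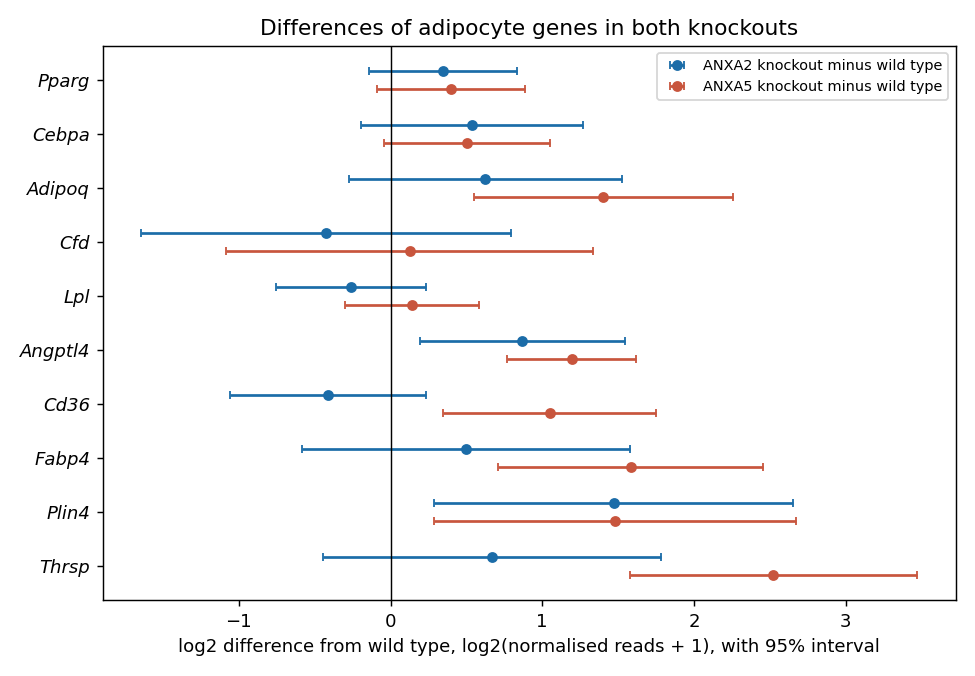
Log2 differences of the 10 genes from the wild type in both knockouts (x axis, log2(normalised reads + 1), points with 95% intervals from the limma fit of each table); both series share the same 4 wild type libraries. In the ANXA5 knockout the intervals of Adipoq, Angptl4, Cd36, Fabp4, Plin4 and Thrsp lie above 0, and in the ANXA2 knockout those of Angptl4 and Plin4 do.

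With limma-trend and Benjamini-Hochberg adjustment over all genes, 0 of the 10 members passed in the ANXA5 knockout, where 5 of 16224 genes (0.0308%) did. At an unadjusted p under 0.05, 6 members were below the limit, against 11.9% of all genes. edgeR called 0 members and 0.0308% of genes. The authors' deposited table called 5 members higher, against 0.991% of its genes with an adjusted p. In that table the log2 fold changes of these 5 were 1.17 for Angptl4, 2.59 for Thrsp, 1.41 for Fabp4, 1.34 for Adipoq and 1.12 for Cd36. The calls thus depend on the tool, and nothing further is read from them since this contrast chose the genes. Without wild type library 4, the limma fit called Angptl4 and Thrsp, and 32 genes in all, or 0.194% of those tested.

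In the ANXA2 knockout, all 10 members had groups that overlapped the wild type. Groups lay apart upward for 4.56% and downward for 4.63% of 16123 tested genes. The members' median log2 difference was 0.52 with 7 of 10 above 0, against a median of 0.02 and 54.1% above 0 over all tested genes. Both knockouts were compared with the same wild type libraries, so likeness between them is not read as a result.

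Angptl4 had 3284, 3878 and 1699 normalised reads in ANXA2 knockout libraries 1, 3 and 4, against 1500.2, 1090.1, 1580.2 and 2093 in wild type libraries 1 to 4. Libraries 1 and 3 exceeded all wild type libraries and library 4 did not. The means were 2954 ± 1126 in ANXA2 knockout and 1566 ± 412 in wild type libraries (SD, n = 3 and 4), with a log2 difference of 0.87 (SE 0.30, 95% interval 0.19 to 1.54). Plin4 had 57.1, 139 and 92.9 in the ANXA2 knockout, against 14.8, 27.4, 31.4 and 79.6 in the wild type, where only library 4 reached into the knockout range. Its log2 difference was 1.47 (SE 0.52, 95% interval 0.29 to 2.66). These were the members whose 95% interval did not include 0.

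The regulators and adiponectin were a little higher on average. Pparg had 205, 326 and 310.2 normalised reads in the ANXA2 knockout and 177, 266, 191 and 242 in the wild type (log2 0.35, SE 0.21, 95% interval -0.14 to 0.83). Cebpa had 482, 814 and 918 in the ANXA2 knockout and 336, 368, 615 and 756 in the wild type (log2 0.54, SE 0.32, 95% interval -0.20 to 1.27). Adipoq had 197, 357 and 310.2 in the ANXA2 knockout and 92.2, 155, 239 and 314 in the wild type (log2 0.62, SE 0.40, 95% interval -0.27 to 1.52). In each of these genes knockout library 1 was the lowest of its group and lay within the wild type range.

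Among the uptake and storage genes, Fabp4 had 282, 596 and 548 normalised reads in the ANXA2 knockout and 139, 303, 379.6 and 658 in the wild type, a log2 difference of 0.50 (SE 0.48, 95% interval -0.59 to 1.58). Cd36 was lower on average, with 307, 608 and 403 in the ANXA2 knockout and 353, 682, 631 and 654 in the wild type (log2 -0.41, SE 0.29, 95% interval -1.06 to 0.24). The 3 knockout libraries of Cd36 reached from below the lowest wild type library to just under the other 3 wild type libraries. Lpl had 2665, 5186 and 4483 in the ANXA2 knockout and 5609, 4453, 4847 and 4172 in the wild type (log2 -0.26, SE 0.22, 95% interval -0.76 to 0.23). Its low value came from knockout library 1, and without that library the log2 difference was 0.02. The ratio of Angptl4 to Lpl reads was 1.23, 0.748 and 0.379 in ANXA2 knockout libraries 1, 3 and 4, of which library 4 lay within the wild type range.

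Thrsp and Cfd were near the lower end of what was counted. Thrsp had 19.4, 17.8 and 8.16 normalised reads in the ANXA2 knockout and 6.36, 9.95, 4.66 and 17.3 in the wild type (log2 0.67, SE 0.49, 95% interval -0.44 to 1.78). Cfd had 10.8, 12.4 and 20.4 in the ANXA2 knockout and 7.42, 44.8, 17.5 and 22.1 in the wild type (log2 -0.42, SE 0.54, 95% interval -1.64 to 0.80). In both genes the groups overlapped and the interval included 0. limma with Benjamini-Hochberg adjustment called 0 of the 10 members and 0.112% of all genes, and edgeR called 0 members and 0.13%. At an unadjusted p under 0.05, 2 members (Angptl4 and Plin4) were below the limit, against 8.69% of all genes. The authors' deposited table called 0 members and 0.593% of its genes.

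Set directly against each other on the joint scale, the ANXA2 knockout libraries were below all ANXA5 knockout libraries for 3 members, Cd36, Fabp4 and Thrsp. Groups lay apart in that direction for 5.96% of 16791 tested genes. Of the 10 members, 1 had a difference above 0, and the median was -0.47, against 0.01 over all tested genes. The same knockout libraries had served to choose the members, so nothing is read from the count.

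Cd36 had 329, 652 and 432 normalised reads in ANXA2 knockout libraries 1, 3 and 4 and 1109.8, 855, 1058 and 2393 in ANXA5 knockout libraries 1 to 4, a log2 difference of -1.46 (SE 0.35, 95% interval -2.21 to -0.71). Thrsp had 20.8, 19.1 and 8.76 in ANXA2 knockout and 43.5, 43.6, 50.7 and 111 in ANXA5 knockout libraries, a log2 difference of -1.84 (SE 0.47, 95% interval -2.86 to -0.83). Fabp4 had 303, 639.7 and 588 in ANXA2 knockout and 785, 953, 1076 and 1389 in ANXA5 knockout libraries, a log2 difference of -1.08 (SE 0.43, 95% interval -2.01 to -0.16). In Fabp4, ANXA2 knockout library 3 came nearest to ANXA5 knockout library 1, and as a ratio the gap was wider in Cd36 and Thrsp. Pparg, Cebpa and Plin4 had means close to each other in both knockouts, with log2 differences of -0.05 (95% interval -0.59 to 0.48), 0.04 (95% interval -0.58 to 0.66) and 0.00 (95% interval -1.22 to 1.22). Adipoq (-0.78, 95% interval -1.65 to 0.10), Cfd (-0.55, 95% interval -1.75 to 0.66), Lpl (-0.40, 95% interval -0.95 to 0.15) and Angptl4 (-0.32, 95% interval -0.91 to 0.27) were lower in the ANXA2 knockout on average with intervals that include 0. limma with Benjamini-Hochberg adjustment called 0 members and 0.298% of all genes, edgeR 0 members and 0.262%, and DESeq2 Cd36 and Thrsp among 2.46% of genes. At an unadjusted p under 0.05, 3 members (Cd36, Fabp4 and Thrsp) were below the limit, against 13.6% of all genes.

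Within groups the members moved in part together. Wild type library 1 was the lowest of its group in 7 of the 10 members (Pparg, Cebpa, Adipoq, Cfd, Cd36, Fabp4 and Plin4) and wild type library 4 the highest in 6 (Cebpa, Adipoq, Angptl4, Fabp4, Plin4 and Thrsp). ANXA2 knockout library 1 was the lowest of its group in 8 members, and library 3 the highest in 7. No ANXA5 knockout library was highest in more than 4 members. The ratio of the highest to the lowest library within the wild type was 4.75 for Fabp4, 5.38 for Plin4 and 6.04 for Cfd, against 1.34 for Lpl. In 5 members, Cebpa, Adipoq, Angptl4, Fabp4 and Plin4, wild type libraries 3 and 4, with 1.25 and 1.03 normalised reads of Xist, both lay above wild type libraries 1 and 2, with 1957 and 2139. With log2 Xist as a covariate, the log2 differences of members moved by -0.01 to 0.32 in the ANXA2 knockout, by -0.04 to 0.17 in the ANXA5 knockout and by -0.01 to 0.07 between the knockouts. Those of Adipoq and Fabp4 in the ANXA2 knockout were 0.92 and 0.82 with the covariate, against 0.62 and 0.50 without it.

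Over the 11 libraries, log2 levels of Adipoq and Fabp4 had a Pearson r of 0.932 and, centred on the genotype means, 0.855. Cebpa and Plin4 had 0.814 and 0.719. Of the 45 pairs of members, 20 had r above 0.5, and 13 when centred on the genotype means. Lpl stood outside this group, with r between -0.07 and 0.25 to all other members. The libraries and their depth are shared by all these values, so the correlations describe these libraries only.

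**Figure D3:**
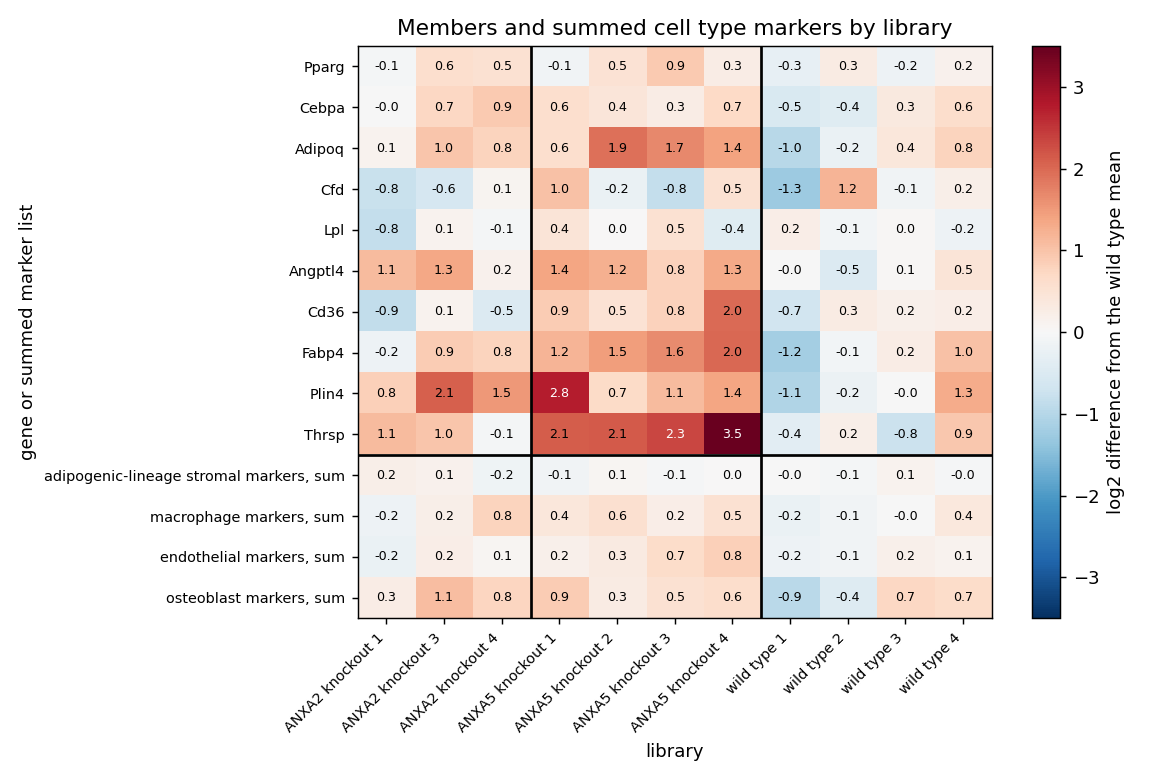
Log2 difference of each library from the wild type mean on the joint scale (colour and number) for the 10 genes and, under the line, for the summed markers of 4 cell types. The sum of the further adipocyte markers is not shown. Thrsp reaches from 2.1 to 3.5 in the ANXA5 knockout libraries, and the members are below 0 most often in wild type library 1. The summed endothelial, macrophage and osteoblast markers are above 0 in all ANXA5 knockout libraries. Osteoblast markers are above 0 in all ANXA2 knockout libraries too, and wild type library 4 is above 0 in each of these sums.

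Markers of other cell types were read in the same libraries. All 10 endothelial markers were in both tables. None was at 0, which holds for every gene shared by the tables and says nothing of these markers. Their sum on the joint scale was 5185, 5733, 7223 and 8118 normalised reads in ANXA5 knockout libraries 1 to 4, 3904 to 5371 in ANXA2 knockout and 4058 to 5214 in wild type libraries. Of the 10, 9 had a log2 difference above 0 in the ANXA5 knockout, with a median of 1.30, against 9 of 10 and a median of 0.24 in the ANXA2 knockout. Tek, the most abundant, was the exception, with a log2 difference of -0.48, while Pecam1 stood at 0.90 and Kdr at 1.13. Groups lay apart for 7 markers, against 3.01% of all tested genes, and for 0 in the ANXA2 knockout. Between the knockouts, a comparison that shares the ANXA5 knockout libraries, 7 markers were lower in all ANXA2 knockout than in all ANXA5 knockout libraries, against 5.96% of all tested genes. Gpihbp1 is also in the lipoprotein lipase list. None of the endothelial markers passed limma's threshold in any comparison. Library 4 of the ANXA5 knockout, highest of its group in Cebpa, Cd36, Fabp4 and Thrsp, was also highest in the endothelial sum. Macrophage markers, led by Lyz2, Cd14 and Ptprc, had log2 differences above 0 for 12 of 12 in the ANXA5 knockout, 4 of them with groups apart, with a median of 0.40, and sums of 116208 to 145926 in ANXA5 knockout, 86569 to 167128 in ANXA2 knockout and 83391 to 126321 in wild type libraries. Osteoblast markers (Col1a1, Spp1 and Ibsp the most abundant) had a median log2 difference of 0.61 in the ANXA5 and 0.22 in the ANXA2 knockout, with 9 and 7 of 10 above 0. The part of these cell types in the members' differences was not tested.

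Other genes of the same pathways were taken from 8 lists of 117 genes, without the members. limma with Benjamini-Hochberg adjustment called 0 of the 103 list genes tested in either knockout against the wild type, and 0 of 104 between the knockouts. At an unadjusted p under 0.05, 11 list genes were higher and 4 lower in the ANXA2 knockout. The ANXA5 knockout had 14 higher and 13 lower. Between the knockouts 17 were higher and 1 lower in the ANXA2 knockout. These are 14.6% of the tested list genes in the ANXA2 knockout, 26.2% in the ANXA5 knockout and 17.3% between the knockouts, where all tested genes gave 8.69%, 11.9% and 13.6%. The median log2 difference of the tested list genes was 0.13 in the ANXA2 and 0.02 in the ANXA5 knockout, beside medians of 0.02 and 0.01 over all genes.

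The genes that handle lipoprotein lipase surround Lpl and Angptl4 in function. Gpihbp1, which carries the lipase to the surface of capillary endothelium, had 218, 169, 238 and 399 normalised reads in ANXA5 knockout libraries 1 to 4, against 16.2, 66.2, 54.0 and 95.7 in wild type libraries. The groups lay apart, with means of 255.8 ± 99.6 in ANXA5 knockout and 58.1 ± 32.9 in wild type libraries (SD, n = 4 each) and a log2 difference of 2.29 (SE 0.478, limma adjusted p = 0.217). Against the ANXA5 knockout, the ANXA2 knockout had 38.2, 73.4 and 77.7 normalised reads of Gpihbp1 (log2 -1.96, limma adjusted p = 0.169). Lipg, the endothelial lipase, stood at 209 ± 20.7 in ANXA2 knockout and 110.3 ± 48.1 in wild type libraries (log2 1.01, limma adjusted p = 0.518), and at 217 ± 58.9 in ANXA5 knockout and 121 ± 52.7 in wild type libraries (log2 0.90, limma adjusted p = 0.324). Vldlr, the very low density lipoprotein receptor, had a log2 difference of 0.39 in the ANXA2 knockout (limma adjusted p = 0.523). Over the list, the median was 0.29 in the ANXA2 and 0.01 in the ANXA5 knockout.

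Regulators around Pparg and Cebpa stood as follows. Cebpb, an early C/EBP factor of fat cell formation, had a log2 difference of 0.61 in the ANXA2 knockout with groups apart (limma adjusted p = 0.523), and the Krüppel-like factor Klf5 one of 0.44 (limma adjusted p = 0.528). The early B cell factors Ebf1 and Ebf2, which act in adipogenesis, had log2 differences of -0.25 and -0.47 in the ANXA5 knockout (limma adjusted p = 0.40 and 0.429). Of 15 regulators, 12 were above 0 in the ANXA2 and 10 in the ANXA5 knockout. Of 12 genes that restrain adipogenesis, 10 were above 0 in the ANXA2 knockout (median 0.18) and 4 in the ANXA5 knockout (median -0.12), where 3 were higher and 3 lower at an unadjusted p under 0.05. Among these 3 higher, Dlk1, the preadipocyte protein Pref-1, had 320.1, 367, 262 and 432 normalised reads in ANXA5 knockout libraries 1 to 4, against 129.8, 216, 157 and 252 in the wild type. Its groups lay apart (log2 0.89, limma adjusted p = 0.23). Klf2, a factor that inhibits Pparg, had a log2 difference of 0.85 in the ANXA2 knockout (limma adjusted p = 0.534). Sirt1, a deacetylase that represses PPAR gamma, had -0.36 in the ANXA2 and -0.35 in the ANXA5 knockout (limma adjusted p = 0.528 and 0.306). Wnt10b, a ligand that blocks fat cell formation, and the Wnt effector Tcf7l2 were higher in all ANXA2 knockout than in all ANXA5 knockout libraries (log2 0.73 and 0.56, limma adjusted p = 0.165 and 0.173). Zfp423, a zinc finger factor of preadipocytes, and Klf5 lay higher in the ANXA2 than in the ANXA5 knockout in the same way (log2 0.55 and 0.43, limma adjusted p = 0.247 and 0.277).

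Thrsp belongs with fatty acid synthesis, whose other genes mostly had lower means in the ANXA5 knockout than in the wild type. In the ANXA5 knockout 3 of 15 tested genes of that list were above 0, with a median log2 difference of -0.18, and 6 of 15 in the ANXA2 knockout, with a median of -0.08. Scd1, the stearoyl-CoA desaturase, stood at 3109 ± 581 in ANXA5 knockout and 5204 ± 1352 normalised reads in wild type libraries (SD, n = 4 each), with groups apart (log2 -0.73, limma adjusted p = 0.277). Fads1, the delta-5 desaturase, had log2 differences of -0.48 in the ANXA2 and -0.51 in the ANXA5 knockout (limma adjusted p = 0.476 and 0.299). Scd2 had -0.49 in the ANXA2 knockout with groups apart (limma adjusted p = 0.497).

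The median log2 difference of the uptake and oxidation list was 0.12 in the ANXA2 and 0.04 in the ANXA5 knockout. Single genes of that list reached 1.01 in the ANXA2 and 0.93 in the ANXA5 knockout. Of the droplet and triglyceride list, Plin2, the droplet coat protein found in most cells, had log2 differences of 0.25 in the ANXA2 and 0.40 in the ANXA5 knockout (limma adjusted p = 0.60 and 0.336), and the list medians were 0.11 and 0.16. Of the uptake and oxidation list, Acsl1, an acyl-CoA synthetase, had 0.49 in the ANXA5 knockout (limma adjusted p = 0.342). Pdk4, a kinase induced by PPAR factors, had 0.62 in the ANXA2 knockout (limma adjusted p = 0.603), and Slc27a1, a fatty acid transporter, 0.33 with groups apart (limma adjusted p = 0.565). Decr1, a mitochondrial reductase of unsaturated fatty acids, had -0.25 in the ANXA5 knockout with groups apart (limma adjusted p = 0.348). The adipokine list, beside Adipoq, had medians of 0.12 in the ANXA2 and 0.11 in the ANXA5 knockout. Within it Lcn2 had 0.49 and the adiponectin receptor Adipor2 0.31 in the ANXA5 knockout, and Cdh13, which binds adiponectin, 0.38 in the ANXA2 knockout (limma adjusted p = 0.371, 0.438 and 0.578). The alternative complement pathway, to which Cfd belongs, had list medians of 0.01 in the ANXA2 and -0.07 in the ANXA5 knockout. There Cfp (properdin) had 0.41 and Cd55, an inhibitor of the convertase, -0.39 in the ANXA5 knockout, and C5ar1 0.45 in the ANXA2 knockout (limma adjusted p = 0.266, 0.347 and 0.523).

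**Figure D4:**
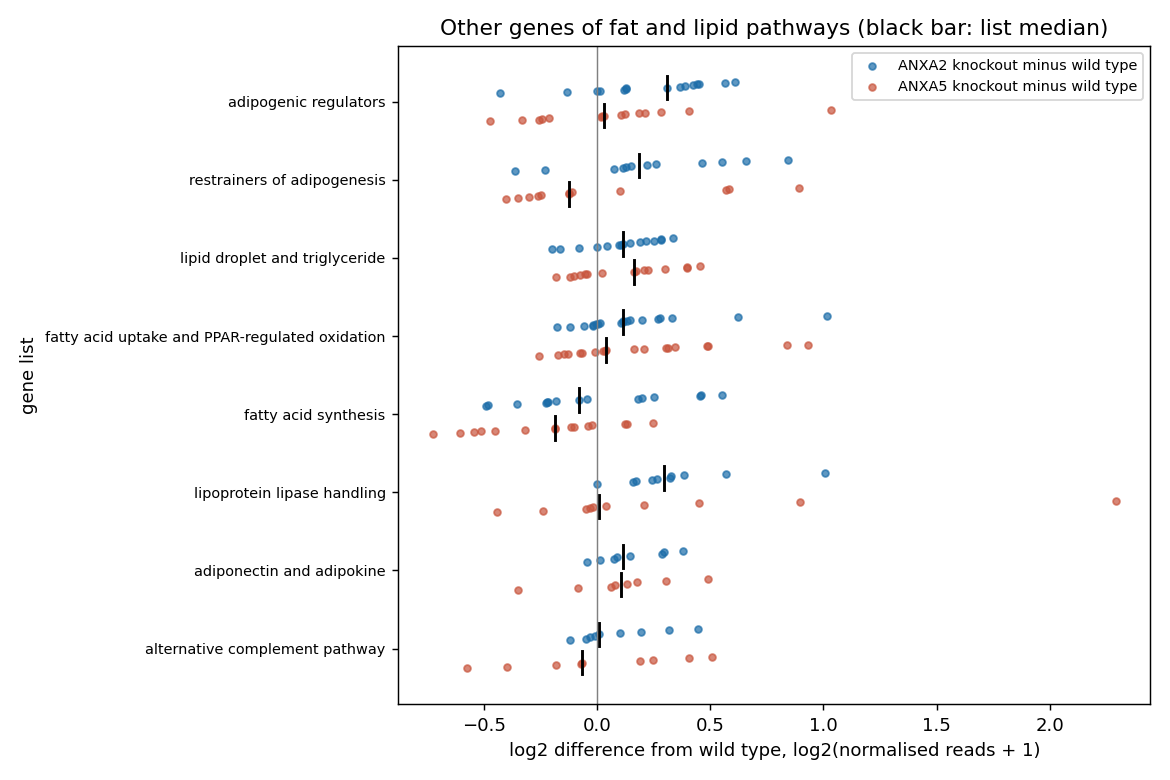
Log2 differences from the wild type (x axis, log2(normalised reads + 1)) of the tested genes of 8 pathway lists (y axis), 1 point a gene and a black bar at each median, for both knockouts. Most genes lie within 0.5 of 0, and Gpihbp1 at 2.29 in the ANXA5 knockout is the point furthest from 0.

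Genes with a pattern most like that of 4 members were sought among 16790 other genes by Pearson correlation of log2 levels over the 11 libraries, as a description. For Angptl4 they were Vdr (r = 0.951), Ephb4 (0.915) and Wee1 (0.905). For Thrsp they were Aqp7 (0.928), Shq1 (0.922) and Wdr3 (0.916). For Adipoq they were Kng1 (0.969), Tnfrsf19 (0.954) and Ushbp1 (0.946), and for Pparg they were Dapk2 (0.932), Elp6 (0.902) and Ackr1 (0.89). Kng1 lies on the chromosome of Adipoq with 2 protein-coding genes, Eif4a2 and Rfc4, between them in GENCODE vM21. Centred on the genotype means, r ranged from 0.66 for Wdr3 with Thrsp to 0.958 for Kng1 with Adipoq.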

How the data were processed

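RNA of untreated primary marrow stromal cells was measured in 11 libraries, and groups were read from the labels. The signal the authors deposited is a read count divided by a size factor, and multiplying back gave whole reads for 100% of values within 0.001. Trim Galore, STAR, HTSeq and DESeq2, with the build GRCm39, are named in the submitters' processing notes, with versions not given in the sources used here. Per the file headers, the deposited log2 fold changes and each p-value, raw and adjusted, are those of DESeq2. The deposited score columns, the standard error of the fold change and the test statistic per the file headers, were used as follows: the first was copied with the authors' values and the second was left out. Whether reads were counted by strand is not stated, so antisense reads cannot be told apart. The tables list no gene whose count is 0 in any knockout library.

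Members and lists were chosen with earlier results of these data known, and the lists were put together by hand from textbook roles. limma 3.58.1 (trend, R 4.3.3) was run on log2(value + 1) over genes with at least 10 normalised reads in at least the number of libraries of the smaller group, with two-sided p adjusted by Benjamini-Hochberg over all genes at 0.05. Each knockout was fitted with the wild type in its own table. Both knockouts were compared in 1 fit of all 11 libraries, scaled by the median of ratios over 18712 shared genes. Alternatives were edgeR 4.0.16, DESeq2 1.42.0, TMM scaling, pseudocounts of 0.5 and 5, no filter, Xist as a covariate, a replicate block and each library left out. The fits were tested on simulated data with planted 2-fold and 4-fold differences. For the ANXA2 knockout, the ANXA5 knockout and the direct comparison, limma found 51%, 66% and 63% of the 2-fold differences. Of the 4-fold differences it found 90%, 92% and 94%. It made 5, 10 and 10 false calls, against 29, 34 and 40 for DESeq2. The simulated counts were drawn independently for each gene and library, and the planted differences ease the Benjamini-Hochberg limit. These shares and false calls hold for the simulation and are not rates for the real libraries. All 10 members were named, and 2 genes of each list by smallest p in each comparison, with some left out of the text. Marker lists were represented by their 3 most abundant genes. 0 sample columns were left out. Exon lengths came from GENCODE vM21 (GRCm38), not the build of the submitters, and upstream runs from RefSeq. Each library's depth of 23.3 to 35.7 M reads limits mainly Thrsp and Cfd, with few reads a library.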

Additional observations from a re-analysis of the deposited data

Results flagged for a closer look

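In 3 of 20 groups of 4 libraries, 1 library of a member stood apart from the others, with a gap to its neighbour, as a share of the range of the group, above Dixon's 95% critical value for 4 values. Chance gives about 1 in 20 such groups where values are normal and groups independent, while the groups here share libraries across genes. The gaps were taken on normalised reads and were not computed on the log2 scale of the differences. Thrsp was at 113.8 normalised reads in ANXA5 knockout library 4, and the gap was 0.894 of the range. Cd36 was at 2457 normalised reads in the same ANXA5 knockout library 4, with a gap of 0.834 of the range. Cd36 in wild type library 1 was low instead, at 386 normalised reads, with a gap of 0.862 of the range. The log2 difference of Cd36 between ANXA5 knockout and wild type ranged from 0.73 without ANXA5 knockout library 4 to 1.23, and that of Thrsp from 2.12 to 2.84, over the alternatives.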

How the results depend on the processing

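Of 479 values of members under alternatives, 466 kept their sign and 0 moved by more than 1 SD. Leaving out 1 library cannot move a difference by more than 1 SD, so the 0 shows little. Some alternatives cannot change a member's difference at all, such as no filter or, between the knockouts, leaving out a wild type library. They add to the values that kept their sign. The 13 changes of sign were in Cfd (ANXA5 knockout, to -0.30), Lpl (ANXA2 knockout, to 0.02) and, between the knockouts, Angptl4, Cebpa, Plin4 and Pparg. Of 768 values of list genes, 0 reversed. These were only the 2 genes of each list with the smallest p in each comparison, a choice that favours a stable sign. DESeq2 called 104 genes (0.645% of those with an adjusted p) in the ANXA2 knockout, 282 (1.89%) in the ANXA5 knockout and 397 (2.46%) between the knockouts. In the same comparisons limma called 18, 5 and 50. DESeq2 called 5 members and 3 list genes (Dlk1, Gpihbp1 and Scd1) in the ANXA5 knockout, and 2 members and 5 list genes (Gpihbp1, Klf2, Sox9, Tcf7l2 and Wnt10b) between the knockouts. Xist as a covariate gave 284 genes in the ANXA2 knockout and 1 list gene (Scd1) in the ANXA5 knockout. Leaving out 1 library in turn gave 8 to 16 genes in the ANXA2 knockout (8 without knockout library 3, 11 without wild type library 2, 10 without wild type library 4). It gave 4 to 32 genes and 0 to 2 members in the ANXA5 knockout (8 genes without knockout library 3, 32 genes, or 0.194%, and 2 members without wild type library 4). Between the knockouts it gave 19 to 54 genes and 0 to 1 list genes (Gpihbp1 without wild type library 1, Klf2 without wild type library 3), with 19 and 25 genes without ANXA2 knockout libraries 1 and 3, 21, 27, 21 and 22 without ANXA5 knockout libraries 1 to 4, and 32 and 33 without wild type libraries 2 and 4. The log2 difference of Anxa2 in the ANXA2 knockout ranged from -1.97 to -1.70 with 1 library left out, where fewer libraries allow no smaller exact p. With the replicate number as a block, 8 genes and 0 members passed in the ANXA5 knockout. Same-numbered libraries correlated at 0.05, -0.07, -0.25 and 0.07 in their deviations, so they did not deviate together. With 4 libraries a group, this cannot show whether libraries were paired, which the labels do not state. For the ANXA2 knockout no fit with a replicate block was run, because its columns do not carry the numbers of the titles. For the other changes the cause was not tested. The likeness of Wdr3 to Thrsp was 0.66 when centred on genotype means. Low reads limit Thrsp and Cfd.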
